A study of Homo sapiens with 4 samples.

Results

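Regions centred on long interspersed nuclear elements (LINEs) were the rows of the authors' 4 enhancer tables whose annotation places the middle of the region in an element of the LINE class. There were 6435 such regions among 45672. The tables came from CUT&Tag for H3K27ac, an antibody-directed transposase assay for a histone mark of active enhancers and promoters, on 100000 cells of Kasumi-1 per library. Kasumi-1 is a human myeloid leukaemia line in which the t(8;21) translocation fuses RUNX1 to RUNX1T1. The tested cells had the SETD8 gene targeted by CRISPR/Cas9 with the guide sgSETD8 and are labelled SETD8 knockout (2 libraries), and the controls carried sgNT and are labelled WT (2 libraries). SETD8, also called KMT5A, is the enzyme that monomethylates histone H4 at lysine 20. The titles and antibody labels name H3K27ac, whereas the series' design line names H3K27me1. The labels do not say whether the libraries came from separate cultures or whether the knockout cells were a clone, so any spread between tables may be technical.

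Each guide had 2 tables. They form 2 pairs by the naming of their identifiers: a sparse pair of few, short regions (7276 with sgSETD8 and 5186 with sgNT) and a dense pair of more and longer regions (18061 with sgSETD8 and 15149 with sgNT). In the sparse pair the sgNT table is read as such because its identifiers name the cell line and no SETD8 guide. The tables hold a normalized signal per region and no read counts, so the depth behind them is unknown, and they are not known to share a scale. Comparisons were therefore made within a pair. Among the myeloid markers RUNX1, RUNX1T1, KIT, CD34, MPO, CD33, SPI1 and MYB, 7 of 8 had a region in the sparse sgSETD8 table and 5 in the sparse sgNT table, with 8 in the dense sgSETD8 table and 7 in the dense sgNT table. Of 4 T-cell markers, 2 had a region in the sparse sgSETD8 table and 0 in the sparse sgNT table, with 3 in each dense table. Of 4 B-cell markers, 1 had a region in each sparse table, with 2 in the dense sgSETD8 table and 1 in the dense sgNT table. For the erythroid and the non-haematopoietic panels, of 4 markers each, it was 0 in either sparse table and 1 in each dense table.

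LINEs are the retrotransposons that encode their own reverse transcriptase. L1 is the family that is still mobile in humans: L1HS and the L1PA subfamilies are its youngest branches and specific to primates, followed by L1PB and other L1P names, while the L1M names (L1MA to L1ME) are older and shared with other mammals. L2 and CR1 (with its L3 elements) are older still, immobile and mostly short fragments, some of which serve as enhancers. L1 copies are normally held silent by DNA methylation, the HUSH complex and histone H3 lysine 9 methylation. Young L1 copies resemble each other closely, so a read can match several of them. How such reads were placed is not given in the sources used here, and the position of a single L1HS or L1PA region is uncertain for that reason.

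The share of LINE-centred regions that reached a gene start was below that of all regions in each of the 4 tables, a difference given here without a test. The window from 250 bases before to 50 bases after a RefSeq transcript start was overlapped by 3 LINE-centred regions of the sparse sgSETD8 table and 4 of the sparse sgNT table, and by 225 regions (8.97%) of the dense sgSETD8 table and 170 (8.69%) of the dense sgNT table. Over all regions the share was 0.77% with sgSETD8 and 2.12% with sgNT in the sparse pair, and 10.5% with sgSETD8 and 10.8% with sgNT in the dense pair. Most of the dense members counted here were stitched from several peaks, so that the LINE and the start lie apart. Restricted to regions of 1 peak, the numbers were 1 of 1316 with sgSETD8 and 0 of 442 with sgNT in the sparse pair, and 16 of 1485 with sgSETD8 and 9 of 1093 with sgNT in the dense pair (1.08% and 0.82%, where all regions of 1 peak gave 3.00% and 2.78%). The 6 windows printed here were chosen from the overlapping windows, after they were seen, to show gene starts under or just beside a LINE-centred region. The middle of the window lay 93 bp from the region's centre for LOC124901371 and 167 bp for SPIN4-AS1. It lay 1187 bp away for MPHOSPH8, 1431 bp for ALDH9A1 and 4656 bp for TET3. For COX20 it was 1012 bp with sgSETD8 and 866 bp with sgNT. At SPIN4-AS1 and at these last 4 genes the centre on the LINE thus lay outside the window. They come from RefSeq (GRCh38.p14, whose chromosome coordinates are those of hg38) and are 300 bases each, 5′ to 3′ on the gene's strand. Capitals mark a match, on either strand, to the letters TGTGGT for RUNX factors, AGATAA for the factors of the GATA family, TGANTCA for the AP-1 family, CAGCTG for the E-box, GGAAGT for the ETS family or AAGATGG for YY1. The first 2 windows overlap L1PA16 regions that had no sgNT counterpart. The start of the long non-coding RNA LOC124901371 (chr6:108379645-108379944, plus strand) lay in the sparse sgSETD8 region chr6:108379697-108380078, whose centre falls inside the window. The window of SPIN4-AS1 (chrX:63283437-63283736, plus strand) shared 187 bases with the dense sgSETD8 region chrX:63283215-63283623, all of them before the start, which lay outside the region.
LOC124901371: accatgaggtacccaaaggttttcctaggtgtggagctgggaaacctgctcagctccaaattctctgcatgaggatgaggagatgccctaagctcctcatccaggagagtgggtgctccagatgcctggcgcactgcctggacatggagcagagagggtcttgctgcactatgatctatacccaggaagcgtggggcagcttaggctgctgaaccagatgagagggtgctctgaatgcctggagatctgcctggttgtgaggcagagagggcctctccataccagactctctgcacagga
SPIN4-AS1: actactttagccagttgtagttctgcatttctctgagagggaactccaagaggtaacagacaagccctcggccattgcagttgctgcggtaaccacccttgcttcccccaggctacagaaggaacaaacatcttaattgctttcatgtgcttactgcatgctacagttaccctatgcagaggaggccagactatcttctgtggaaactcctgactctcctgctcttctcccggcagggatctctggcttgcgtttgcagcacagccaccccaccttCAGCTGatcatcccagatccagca
The next windows lie under dense sgSETD8 regions that had a dense sgNT counterpart. MPHOSPH8, the HUSH subunit that reads methylated lysine 9 of histone H3, starts in chr13:19633409-19633708 (plus strand), within the L2a-centred region chr13:19633321-19636169. ALDH9A1, an aldehyde dehydrogenase, starts in chr1:165698513-165698812 (minus strand), of which 178 bases fell in the L1MA9-centred region chr1:165695773-165698690. COX20, an assembly factor of cytochrome c oxidase, starts in chr1:244835226-244835525 (plus strand), within L2-centred regions of both dense tables, chr1:244833386-244839389 with sgSETD8 and chr1:244833422-244839061 with sgNT.
MPHOSPH8: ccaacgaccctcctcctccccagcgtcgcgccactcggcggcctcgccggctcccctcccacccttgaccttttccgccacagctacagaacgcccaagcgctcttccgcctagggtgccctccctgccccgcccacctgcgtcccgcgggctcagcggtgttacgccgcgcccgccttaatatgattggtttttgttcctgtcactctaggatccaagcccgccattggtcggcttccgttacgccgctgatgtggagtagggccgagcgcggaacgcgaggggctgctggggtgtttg
ALDH9A1: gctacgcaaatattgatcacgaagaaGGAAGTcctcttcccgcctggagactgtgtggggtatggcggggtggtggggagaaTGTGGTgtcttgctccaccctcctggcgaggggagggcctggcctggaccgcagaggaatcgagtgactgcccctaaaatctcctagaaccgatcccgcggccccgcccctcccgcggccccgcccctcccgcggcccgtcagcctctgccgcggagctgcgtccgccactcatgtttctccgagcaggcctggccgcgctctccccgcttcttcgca
COX20: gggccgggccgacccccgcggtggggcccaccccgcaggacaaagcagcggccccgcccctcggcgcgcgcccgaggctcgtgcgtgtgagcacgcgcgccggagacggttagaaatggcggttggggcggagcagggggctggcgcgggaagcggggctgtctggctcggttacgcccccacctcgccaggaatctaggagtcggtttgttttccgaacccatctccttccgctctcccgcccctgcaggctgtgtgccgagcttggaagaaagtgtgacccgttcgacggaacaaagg
The last window is a start of TET3, an enzyme that oxidises methylated cytosine (chr2:74002442-74002741, plus strand). It lies within the L2b-centred dense sgNT region chr2:73993022-74002848, which had a dense sgSETD8 counterpart.
TET3: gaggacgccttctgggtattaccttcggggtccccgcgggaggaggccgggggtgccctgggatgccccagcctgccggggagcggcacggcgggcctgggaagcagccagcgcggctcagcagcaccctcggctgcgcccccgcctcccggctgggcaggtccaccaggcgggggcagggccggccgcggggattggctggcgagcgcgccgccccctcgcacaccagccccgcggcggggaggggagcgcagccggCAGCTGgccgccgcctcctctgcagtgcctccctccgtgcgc
ALDH9A1 held 1 RUNX and 1 ETS match, SPIN4-AS1 and TET3 1 E-box match each, and LOC124901371, MPHOSPH8 and COX20 held 0 matches to the 6 motifs. Over all 35116 RefSeq windows, 13.1% held the RUNX letters, 10.3% GATA, 7.71% AP-1, 17.9% E-box, 22.8% ETS and 5.84% YY1. A match is a run of letters and shows no binding.

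The first comparison asked how much of the acetylated regions was centred on LINEs with each guide. LINEs made up a larger share with sgSETD8 in both pairs, and the size of the difference depended on the pair. In the sparse pair 1439 of 7276 sgSETD8 regions were centred on a LINE (19.8%, exact 95% interval 18.9 to 20.7), against 531 of 5186 sgNT regions (10.2%, 9.43 to 11.1). The dense tables gave 2508 of 18061 sgSETD8 regions (13.9%, 13.4 to 14.4), against 1957 of 15149 sgNT regions (12.9%, 12.4 to 13.5). These intervals treat regions as independent and cover counting error only. Over tables the share was 16.8% ± 4.17 with sgSETD8 and 11.6% ± 1.89 with sgNT (SD, n = 2 tables each), a difference of 5.25 percentage points, with an exact two-sided permutation p of 0.333, the smallest that 2 tables against 2 can give. The groups did not overlap in share, but 3 of the 4 shares lay between 10.2% and 13.9% and the sparse sgSETD8 table stood apart. In the number of LINE-centred regions the groups did overlap. The mean log2 difference in number was 0.90, with an exact two-sided permutation p of 0.667.

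The excess lay in L1 in the sparse pair, while in the dense pair the intervals of L1 and of L2 with CR1 overlapped. In the sparse pair there were 1162 L1-centred regions with sgSETD8 and 298 with sgNT, 3.90 times as many (exact 95% interval 3.43 to 4.44). In the dense pair there were 1459 with sgSETD8 and 1100 with sgNT, 1.33 times as many (1.23 to 1.44). L2 and CR1 together gave 274 regions with sgSETD8 and 225 with sgNT in the sparse pair, a ratio of 1.22 (1.02 to 1.46), and 1026 with sgSETD8 and 832 with sgNT in the dense pair, a ratio of 1.23 (1.12 to 1.35). Those ratios were close to the 1.25 and 1.18 of regions centred on anything but a LINE. L1 made up 80.8% of the LINE-centred regions of the sparse sgSETD8 table, against 56.1% of the sparse sgNT table, and 58.2% in the dense sgSETD8 table, against 56.2% in the dense sgNT table. The mean difference of 13.3 ± 16.0 percentage points (SD over 2 pairs) thus came mostly from 1 pair. The exact two-sided permutation p, over the tables and without regard to the pairs, was 0.333. CR1 alone was rare, with 14 regions with sgSETD8 and 20 with sgNT in the sparse pair and 81 with sgSETD8 and 66 with sgNT in the dense pair. The remaining families, among them RTE elements, gave 3 and 23 regions in the sparse and dense sgSETD8 tables and 8 and 25 in the sgNT tables.

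**Figure D1:**
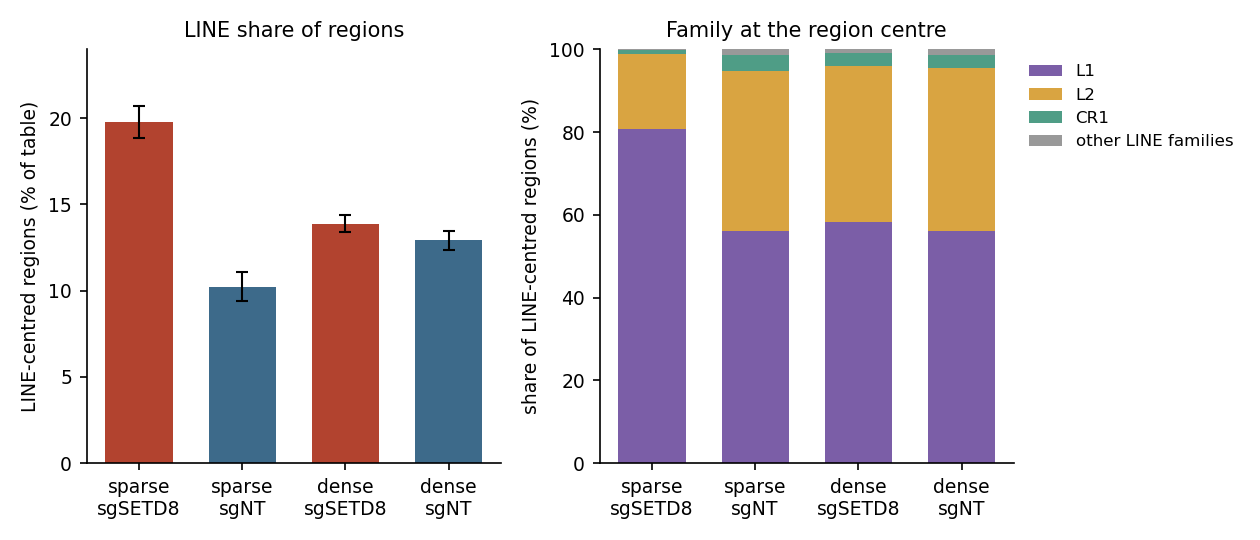
Left, share of each table's regions that were centred on a LINE (bars, %), with exact 95% binomial intervals. Right, the LINE family at the centre, as a share of the LINE-centred regions of each table (%). The sparse sgSETD8 table stands apart at 19.8%, and L1 takes 80.8% of its LINE-centred regions, against 56.1% to 58.2% in the 3 others.

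Within L1 the difference varied with the subfamily group, most of all in the sparse pair. L1HS and L1PA regions numbered 479 with sgSETD8 and 43 with sgNT in the sparse pair, 11.1 times as many (8.14 to 15.6), and 212 with sgSETD8 and 142 with sgNT in the dense pair, 1.49 times as many (1.20 to 1.86). L1PB regions were 3.35 times as many in the sparse pair (77 with sgSETD8, 23 with sgNT) and 1.59 times in the dense pair (86 with sgSETD8, 54 with sgNT). Other L1P names gave 57 regions with sgSETD8 and 8 with sgNT in the sparse pair (7.13 times), and 36 with sgSETD8 and 24 with sgNT in the dense pair (1.5 times). The L1MA group, the youngest of the L1M names, gave 207 regions with sgSETD8 and 31 with sgNT in the sparse pair (6.68 times), and 170 with sgSETD8 and 126 with sgNT in the dense pair (1.35 times). L1M names with a digit in place of that letter, such as L1M1 and L1M2, gave 209 regions with sgSETD8 and 47 with sgNT in the sparse pair (4.45 times), and 200 with sgSETD8 and 129 with sgNT in the dense pair (1.55 times). From L1MB on, the sparse pair showed no such excess. It held 26 L1MB regions with either guide, 33 L1MC regions with sgSETD8 and 32 with sgNT, 18 L1MD regions with sgSETD8 and 17 with sgNT, and 44 L1ME regions with sgSETD8 and 60 with sgNT. The L1ME ratio was 0.73 in the sparse pair (0.49 to 1.10) and 1.27 in the dense pair (1.08 to 1.499), with 337 dense regions with sgSETD8 and 265 with sgNT. HAL1, an element derived from L1, gave 12 sparse regions with sgSETD8 and 11 with sgNT, and 53 dense regions with sgSETD8 and 52 with sgNT.

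**Figure D2:**
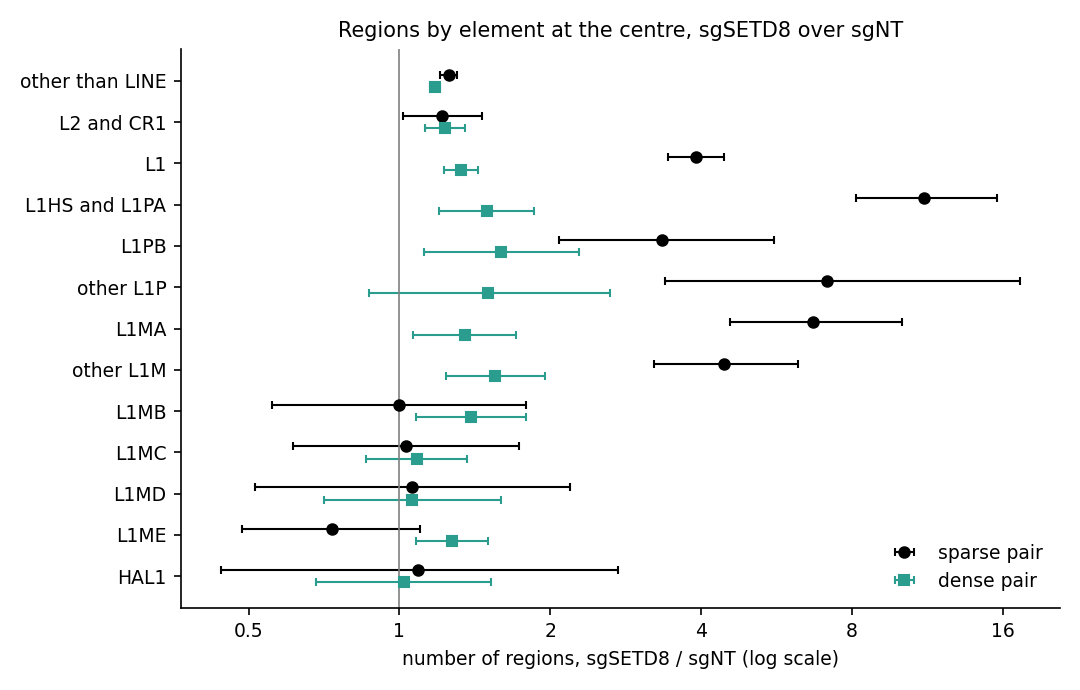
Number of regions with sgSETD8 divided by the number with sgNT, by the element at the region centre, on a log axis; circles are the sparse pair, squares the dense pair, and bars are exact 95% intervals that cover counting only. In the sparse pair the groups from L1HS and L1PA to other L1M lie between 3.35 and 11.1, and those from L1MB to HAL1 between 0.73 and 1.09, while the dense ratios of these groups span 1.02 to 1.59.

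Single subfamilies were counted next. Of 152 LINE names in the tables, 74 had at least 20 regions in all (67 of L1, 4 of L2, 2 of CR1 and 1 of another family). Of the 67 L1 subfamilies, 49 had more regions with sgSETD8 in the sparse pair and 53 did so in the dense pair, and of the 4 L2 subfamilies 4 did so in each pair. Across all 74, 42 had more regions with sgSETD8 in both pairs and 3 had fewer in both. The 15 L1PA subfamilies all had more in the sparse pair, and 13 of 15 did in the dense pair. Of 4 L1PB subfamilies, 4 had more in each pair. Of 9 L1MA subfamilies, 9 had more in the sparse pair and 5 in the dense pair. Of 6 L1MB subfamilies, 3 had more in the sparse pair and 6 in the dense pair, and of 12 L1ME subfamilies 4 had more in the sparse pair and 10 in the dense pair. Of 8 L1MC subfamilies, 6 had more in the sparse pair and 4 in the dense pair. Among the 8 L1M subfamilies named with a digit, 5 had more in the sparse pair and 7 in the dense pair. L1M4, L1M5 and L1M4b had fewer in the sparse pair. The order of the groups thus differed between the pairs. The 31 subfamilies with more than 3 times as many sparse regions with sgSETD8 were all L1.

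L1PA13 had 59 sparse regions with sgSETD8 and 2 with sgNT, and 17 dense regions with sgSETD8 and 9 with sgNT. L1PA10 had 46 with sgSETD8 and 0 with sgNT in the sparse pair, and 12 with sgSETD8 and 5 with sgNT in the dense pair. L1PA4 had 37 with sgSETD8 and 1 with sgNT in the sparse pair, and 7 with sgSETD8 and 5 with sgNT in the dense pair. All 3 had more regions with sgSETD8 in each pair. L1M2 gave 61 with sgSETD8 and 3 with sgNT in the sparse pair and 17 with sgSETD8 and 11 with sgNT in the dense pair. L1PA6 went opposite ways, with 43 sgSETD8 and 4 sgNT regions in the sparse pair and 12 sgSETD8 and 15 sgNT regions in the dense pair. L2a, the most frequent name, had 98 sparse regions with sgSETD8 and 70 with sgNT, and 360 dense regions with sgSETD8 and 287 with sgNT. L1HS, the subfamily that holds the mobile copies, was at the centre of 0 regions in both sparse tables, 2 in the dense sgSETD8 table and 1 in the dense sgNT table.

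**Figure D3:**
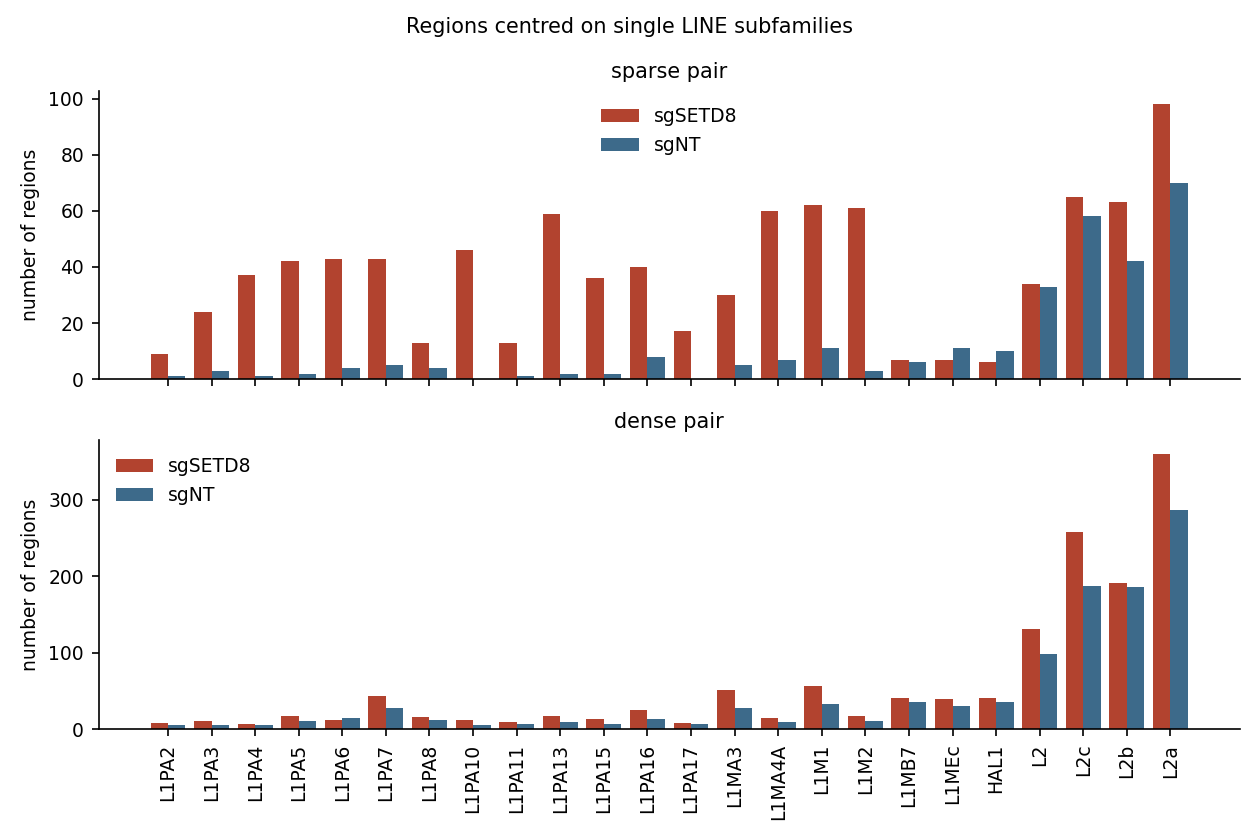
Number of regions centred on each of 24 LINE subfamilies, with sgSETD8 left of sgNT, in the sparse pair (top) and the dense pair (bottom; the vertical scales differ). In the sparse pair the L1PA, L1MA and L1M1/L1M2 bars are tall with sgSETD8 and near 0 with sgNT, while in the dense pair the L2 names are the most frequent with either guide.

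Several other measures differed between the sparse tables as well. Regions centred on simple repeats numbered 548 with sgSETD8 and 55 with sgNT in the sparse pair, 9.96 times as many, and 136 with sgSETD8 and 124 with sgNT in the dense pair. LTR-centred regions were 2.07 times as many with sgSETD8 in the sparse pair and 1.26 times in the dense pair, while regions centred on no repeat were 0.98 times and 1.17 times as many. The smallest width in the sparse tables was 274 bp, and 29.9% of LINE-centred regions had it with sgSETD8, against 13.0% with sgNT. All regions gave 29.7% with sgSETD8 and 10.9% with sgNT. Among LINE-centred regions of at least 500 bp, the sparse pair held 324 with sgSETD8 and 258 with sgNT, a ratio of 1.26 in place of 2.71, where all regions of that width gave 0.62 (1642 with sgSETD8, 2659 with sgNT). For L1HS and L1PA that ratio was 5.24 (89 with sgSETD8, 17 with sgNT), and for L1 as a whole 1.83. Their part in the result was not tested.

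The next comparison asked whether the sparse LINE-centred regions were seen again in the dense pair. With sgSETD8 most were not, and with sgNT most were. Of the sparse LINE-centred regions, 311 of 1439 (21.6%, exact 95% interval 19.5 to 23.8) overlapped a region of either dense table with sgSETD8, against 427 of 531 (80.4%) with sgNT. All sparse regions gave 29.3% with sgSETD8 and 79.0% with sgNT. For regions not centred on a LINE the shares were 31.2% with sgSETD8 and 78.8% with sgNT. It was 56 of 479 (11.7%) with sgSETD8 against 27 of 43 (62.8%) with sgNT for L1HS and L1PA, 3 of 57 (5.26%) with sgSETD8 against 6 of 8 (75%) with sgNT for other L1P names, and higher for L2 and CR1, 40.1% with sgSETD8 against 84.0% with sgNT. Counted over regions seen in the dense pair alone, the sparse pair held 311 LINE-centred regions with sgSETD8 and 427 with sgNT, so the direction of the numbers turned, and for L1 it was 200 with sgSETD8 and 232 with sgNT. All regions turned further, with 2132 with sgSETD8 and 4095 with sgNT, a ratio of 0.52 where LINEs gave 0.73. The LINE share of these regions stayed higher with sgSETD8, at 14.6% (13.1 to 16.2), against 10.4% (9.51 to 11.4) with sgNT. L1HS and L1PA kept theirs there, 56 with sgSETD8 and 27 with sgNT, a ratio of 2.07 (1.29 to 3.42). The regions absent from the dense pair were 962 L1 regions with sgSETD8 against 66 with sgNT, of which 423 and 16 were L1HS or L1PA. All regions absent from the dense pair numbered 5144 with sgSETD8 and 1091 with sgNT, a ratio of 4.71 where L1 gave 14.6. The 2-table design gives no test of this share.

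Few regions were shared between the pairs by 1 table of each. Of the 2508 dense sgSETD8 LINE-centred regions, 33 overlapped a sparse sgSETD8 region and no sgNT region of either pair, and 33 overlapped a sparse sgNT region and no other (1.32% each, where all regions of the table gave 0.78% and 1.45%). Of the 1957 dense sgNT LINE-centred regions, 12 overlapped a sparse sgSETD8 region alone and 10 a sparse sgNT region alone (0.61% and 0.51%, where all regions gave 0.54% and 0.94%). Seen from the sparse pair, 55 of 1439 sgSETD8 members (3.82%) were shared with the dense sgSETD8 table alone and 30 (2.08%) with the dense sgNT table alone, and 39 of 531 sgNT members (7.34%) were shared with the dense sgSETD8 table alone and 15 (2.82%) with the dense sgNT table alone. All sparse sgSETD8 regions gave 4.08% and 2.69% in the same order, and all sparse sgNT regions 6.98% and 3.95%, so the members' shares lay near those of their tables. Regions found in all 4 tables made up 177 (7.06%) of the dense sgSETD8 members and 148 (7.56%) of the dense sgNT members, where all regions gave 6.26% and 7.34%. Examples present with sgSETD8 in both pairs and with sgNT in neither, picked after their values were seen, were an L1PBa region in LINC00301 (chr11:60631778-60633804, rank 7566 in the dense table) and an L1PA13 region in C4orf19 (chr4:37501885-37503191, rank 8303). Their ranks by signal lay in the middle of the table, with rank 1 the region of the highest signal. The sparse sgSETD8 regions that overlapped them were centred on other names, L1PB4 at LINC00301 and L1M1 at C4orf19.

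Within a pair, a region was counted as without counterpart when no region of the other guide overlapped it by at least 1 bp. In the sparse pair 1309 of 1439 LINE-centred sgSETD8 regions (91.0%) had none, where all sgSETD8 regions gave 85.1%, and 74.4% of LINE-centred sgNT regions had none, where all sgNT regions gave 79.1%. In the dense pair it was 36.5% of LINE-centred regions with sgSETD8, where all regions gave 34.0%, and 20.3% with sgNT, where all regions gave 22.7%. LINE-centred regions were thus without counterpart more often than other regions in both sgSETD8 tables (by 7.29 and 2.92 percentage points, sparse and dense). They were so less often in both sgNT tables (differences of -5.29 and -2.74 points). Among regions with a counterpart the LINE share was near equal with both guides, so these opposite signs restate the difference in LINE share. Over the 4 tables the mean difference was 0.55 ± 5.66 points (SD, n = 4 tables; exact two-sided sign-flip permutation p = 0.875, where 4 tables can reach 0.125 at the smallest).

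The families behaved unlike each other here. L1 regions were without counterpart in 92.9% with sgSETD8 and 70.1% with sgNT in the sparse pair, and in 34.7% with sgSETD8 and 14.7% with sgNT in the dense pair. L2 and CR1 regions were so in 83.2% with sgSETD8 and 79.6% with sgNT in the sparse pair, and in 39.4% with sgSETD8 and 27.9% with sgNT in the dense pair. Among the dense L1 groups the widest gap was in L1MA, 54.7% with sgSETD8 against 17.5% with sgNT. L1 exceeded L2 and CR1 in the sparse sgSETD8 table and lay below them in the 3 others (exact two-sided sign-flip permutation p = 0.5 over 4 tables). Where a counterpart existed, it was itself centred on a LINE for 53.1% of sparse and 44.3% of dense sgSETD8 members, and for 50.7% of sparse and 44.9% of dense sgNT members. The centre of a stitched region moves with its outer peaks, so a change of element name at a locus is no change of the mark.

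**Figure D4:**
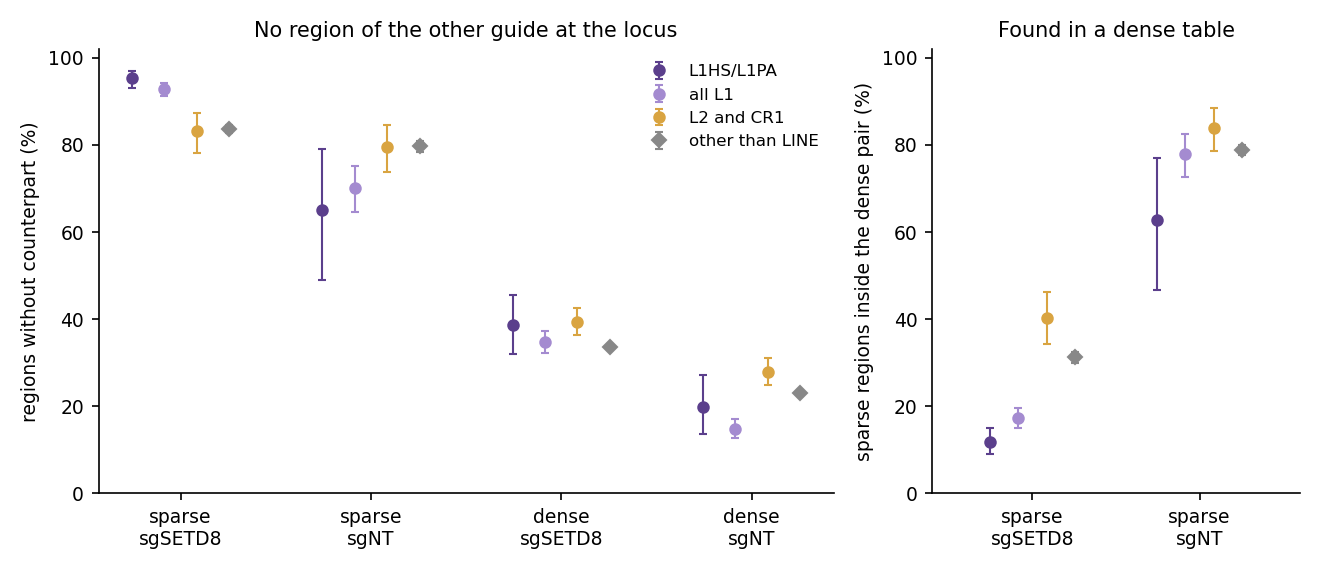
Left, share of regions with no overlapping region of the other guide in the same pair (%); right, share of sparse regions that overlap a region of either dense table (%). Points are L1HS and L1PA, all L1, L2 and CR1, and regions not centred on a LINE, with exact 95% binomial intervals. L1 points lie above the grey diamonds in the sparse sgSETD8 table and below them in both sgNT tables, and 11.7% of the L1HS and L1PA regions of the sparse sgSETD8 table were found in a dense table.

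Along the chromosomes the LINE share was higher with sgSETD8 on 21 of 23 chromosomes in the sparse pair and on 16 of 23 in the dense pair. Cut into 210 windows of 15 Mb, the genome had more LINE-centred regions with sgSETD8 in 155 windows and fewer in 28 in the sparse pair, and more in 138 and fewer in 45 in the dense pair. Regions of every kind were more numerous with sgSETD8 in 147 windows and fewer in 51 in the sparse pair, and more in 181 and fewer in 26 in the dense pair. The most uneven stretch, picked after the counts were seen, was chromosome 5 below 45 Mb. It held 142 LINE-centred regions with sgSETD8 and 12 with sgNT in the sparse pair, and 26 with sgSETD8 and 13 with sgNT in the dense pair. All regions there numbered 435 with sgSETD8 and 79 with sgNT in the sparse pair, and 224 with sgSETD8 and 163 with sgNT in the dense pair. Without this stretch the sparse pair still held 2.50 times as many LINE-centred regions with sgSETD8 (1297 against 519 with sgNT), where all regions gave 1.34. The dense pair without it gave 1.28 for LINE-centred regions and 1.19 for all regions.

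The sites of the families differed too. L1 regions were intergenic in 58.1% with sgSETD8 and 36.6% with sgNT in the sparse pair, and in 28.2% with sgSETD8 and 23.0% with sgNT in the dense pair. L1 exceeded L2 and CR1 in all 4 tables, by 19.0 and 5.14 points in the sparse and dense sgSETD8 tables and 2.80 and 0.64 points in the sgNT tables (mean 6.91 ± 8.29 points, SD, n = 4 tables; exact two-sided sign-flip permutation p = 0.125, the smallest possible). The median distance to the nearest gene start was 56974 bp for L1 with sgSETD8 and 39293 bp with sgNT in the sparse pair, and 31627 bp with sgSETD8 and 26412 bp with sgNT in the dense pair. For L2 and CR1 it was 34235 bp with sgSETD8 and 28254 bp with sgNT in the sparse pair, and 23118 bp with sgSETD8 and 18432 bp with sgNT in the dense pair. L1 lay farther out in 4 of 4 tables, by 0.16 ± 0.04 on the log10 scale (SD, n = 4 tables; exact two-sided sign-flip permutation p = 0.125). L1-centred regions were also wider than L2-centred and CR1-centred ones in all 4 tables. The gap was small in the sparse pair, with median widths of 351.5 bp with sgSETD8 and 503.5 bp with sgNT for L1, against 316 bp with sgSETD8 and 476 bp with sgNT for L2 and CR1. In the dense pair the medians were 2213 bp with sgSETD8 and 3965 bp with sgNT for L1, against 994 bp with sgSETD8 and 893.5 bp with sgNT for L2 and CR1. The log2 ratio of the medians averaged 0.88 ± 0.98 (SD, n = 4 tables; exact two-sided sign-flip permutation p = 0.125), but 0.12 without the dense pair and 0.087 over regions of 1 peak.

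By signal, LINE-centred regions stood low in the sparse tables and level in the dense ones. Their median rank, as a percentile of the table from the highest signal down, was 59.7 with sgSETD8 and 57.7 with sgNT in the sparse pair, where regions not centred on a LINE had 47.4 with sgSETD8 and 49.2 with sgNT. In the dense pair it was 51.0 with sgSETD8 and 49.1 with sgNT, where other regions had 49.9 with sgSETD8 and 50.1 with sgNT. The difference averaged 5.21 ± 6.23 percentile points (SD, n = 4 tables; exact two-sided sign-flip permutation p = 0.25). L1HS and L1PA regions ranked lower in the sparse pair, at 64.2 with sgSETD8 and 75.6 with sgNT.

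A few LINE-centred regions were among the strongest of their table. In the sparse sgSETD8 table the top one was an L1ME2z region upstream of KLF6, a zinc finger transcription factor (chr10:3782565-3803060, 3 peaks, rank 3). It had no sparse sgNT counterpart, and both dense tables held 2 regions over it. Next was an L1PA6 region 150994 bp from the start of KIT, the receptor for stem cell factor (chr4:54792521-54825324, 6 peaks, rank 19). The same locus had 2 regions in each of the 3 other tables, and in both dense tables the best of them was centred on L1PA7, chr4:54816494-54842144 with sgSETD8 (rank 140) and chr4:54816663-54842782 with sgNT (rank 221). CD69, an activation antigen of leukocytes, had an L1PA13 region at -18501 bp from its start (chr12:9778086-9780718, rank 119) with no sparse sgNT counterpart, and regions in both dense tables. An L1MB2 region in ELF1, an ETS factor of blood cells (chr13:41041761-41058699, rank 140), likewise had no sparse sgNT counterpart and 1 region in each dense table. Only 1 of the 5 strongest sgSETD8 members without a sparse sgNT counterpart, the L1ME3G region near the cochaperone DNAJA2 (chr16:46992125-47002479, rank 129), overlapped no dense region.

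The strongest sparse sgNT members were an L1PA3 region near LOC102723883 (chr6:67887595-67898940, rank 9), an L1ME1 region near MIR222, a microRNA gene (chrX:45743151-45772110, rank 10), and an L2b region in CELF2, a splicing regulator (chr10:11171186-11180602, rank 18). All 3 had sparse sgSETD8 counterparts. The strongest sgNT member without one, an L1M4 region near MIR4505 (chr14:73741798-73754598, rank 42), had 2 regions in each dense table.

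In the dense pair the strongest members spanned many peaks. GNAQ, which encodes a G protein alpha subunit, was covered in the dense sgSETD8 table by 2 regions, the best at rank 9 and centred on an A-rich repeat. The dense sgNT table had 1 region of 65 peaks over 285 kb there (chr9:77753882-78039075, rank 2), whose centre fell on L1MC5a. The strongest sgSETD8 members were an L2b region in CCDC26 (59.3 kb, rank 41) and an L1ME1 region near LOC101927516 (141 kb, rank 46). An L2b region in INO80C, a subunit of the INO80 remodelling complex, was centred on the same name with both guides, chr18:35438525-35527274 with sgSETD8 (rank 71) and chr18:35438621-35527274 with sgNT (rank 62). The strongest dense members without a counterpart ranked far lower. With sgSETD8 they began with an L1MC4 region in GMNN, which encodes the replication licensing inhibitor geminin (rank 2157), and an L2c region in SASS6, a centriole assembly gene (rank 2656). With sgNT they began with an L1MC4a region at MIR6786 (rank 2059).

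The LINE loci found in all 4 tables were led, by dense sgSETD8 signal, by CCDC26, LOC101927516, LOC101927989, INO80C, MSN, TAOK3, PARP8, SAMSN1, NUDT3 and IPCEF1. At PARP8 (L2c), SAMSN1 (L1MC5) and NUDT3 (L1PA5) the dense regions of both guides were centred on the same subfamily. SAMSN1, an adaptor protein of blood cells, had 1.15 signal per bp with sgSETD8 and 1.04 with sgNT in the dense pair. NUDT3, a phosphohydrolase, had 0.63 with sgSETD8 and 0.80 with sgNT, before any scaling between the tables.

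Signal at unmoved LINE-centred regions was compared in the dense pair, over regions of both guides that cover each other by at least 90%. There were 1769 such pairs of regions, of which 331 were centred on a LINE in either table and 170 on the same LINE subfamily in both. Signal per bp as deposited was higher with sgSETD8 in 223 of the 1769 and in 24 of the 170 LINE pairs, with a median log2 ratio of -0.26 over all 1769. Since the tables are not known to share a scale, that median was subtracted. A change of the signal at all regions therefore cannot be told apart from scaling. After that the 170 LINE pairs had a median of 0.03 with an SD of 0.24 across regions, against 0.00 and 0.24 for the 1438 pairs not on a LINE in either table. Of the LINE pairs 1 was more than 1.5-fold higher with sgSETD8, where 1.41% of all matched pairs were, and 3 were more than 1.5-fold lower, where 1.02% were. L1 had a median of 0.03 (n = 114) and L2 with CR1 0.04 (n = 53). The 27 pairs on L1HS or L1PA had a median of -0.02 with 12 above 0, the 10 on other L1M names 0.11, the 26 on L1ME -0.05 and the 46 on L2 0.03. With 1 table per guide in this comparison there is no replicate error and no test of these medians.

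At the upper end stood PTPN13, a tyrosine phosphatase gene, with an L1MEc region (chr4:86611575-86612077) at 1.497 signal per bp with sgSETD8 and 1.13 with sgNT, a log2 ratio of 0.67 after the median was subtracted. NSUN6, an RNA methyltransferase gene, followed with an L1M4b region at 0.78 with sgSETD8 and 0.66 with sgNT (0.51), and SVIL, which encodes supervillin, had an L1PA15 region at 0.36 with sgSETD8 and 0.31 with sgNT (0.47). Of the 10 highest, 8 were on L1 and 2 on L2, where 114 of all 170 LINE pairs were on L1. At the lower end stood TET3, with a CR1-3_Croc region (chr2:74039825-74044152) at 0.84 signal per bp with sgSETD8 and 1.61 with sgNT (-0.69). UBE2O, a ubiquitin-conjugating enzyme gene, followed with an L1MB7 region (0.41 with sgSETD8 and 0.77 with sgNT, -0.65), and SOS1, which activates RAS, with an L1MB4 region (0.42 with sgSETD8 and 0.77 with sgNT, -0.61). These 3 were the LINE pairs past 1.5-fold lower.

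**Figure D5:**
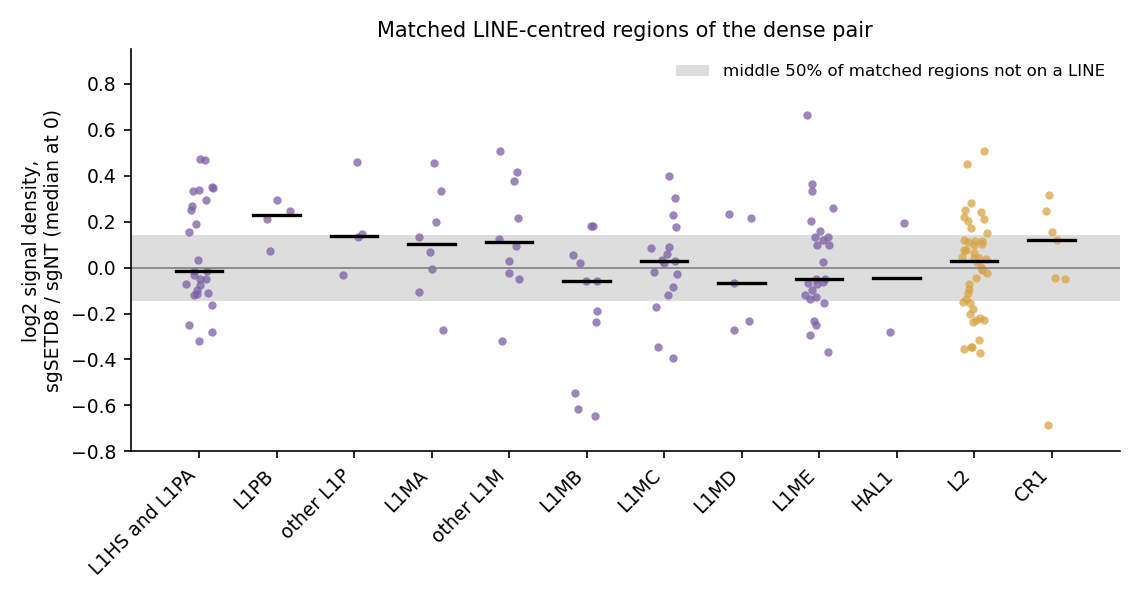
Log2 ratio of signal per bp, sgSETD8 over sgNT, with the median of all 1769 matched dense regions at 0; each point is 1 matched region centred on the same LINE subfamily with both guides, and black lines are group medians. The grey band holds the middle 50% of single matched regions not on a LINE and is no error of a median. Of the 170 points 90 lie above 0, and the lowest point is a CR1 region of TET3.

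Gene lists were read by the nearest gene of each region, and the lists that act on L1 or on lysine 20 of histone H4 had few regions of any kind. Of 26 genes that silence or restrict L1, 0 were assigned a LINE-centred region in the sparse sgSETD8 table and 1 in the sparse sgNT table (ATF7IP), with 3 in the dense sgSETD8 table (MPHOSPH8, ATF7IP and RNASEH2B) and 1 in the dense sgNT table (TASOR). TASOR and MPHOSPH8 encode HUSH subunits and ATF7IP a partner of the methyltransferase SETDB1. LINEs were at the centre of 0 of 9 regions of this list with sgSETD8 and 1 of 10 with sgNT in the sparse pair. The dense tables gave 4 of 17 (23.5%) with sgSETD8, above the 13.9% of the whole table, and 1 of 15 (6.67%) with sgNT, below its 12.9%. Of 8 factors that bind L1 promoters, 0 had one in any of the 4 tables, which held 2 to 7 regions of that list. Of 8 genes listed as writers, readers and erasers of methylated lysine 20 of histone H4, 1 had one, MSH6. It was in the sparse sgSETD8 table, where it was 1 of 3 regions of the list. MSH6 is a mismatch repair gene and no established reader of that mark, and no other gene of the list had a LINE-centred region. KMT5A itself had 0 LINE-centred regions in the 4 tables. Of 30 genes of the fusion and of blood development, 6 had a LINE-centred region in the sparse sgSETD8 table and 6 in the sparse sgNT table, with 11 in the dense sgSETD8 table and 8 in the dense sgNT table. Those regions were 8 of 49 regions of the list (16.3%) with sgSETD8 and 6 of 68 (8.82%) with sgNT in the sparse pair, and 11 of 115 (9.57%) with sgSETD8 and 9 of 126 (7.14%) with sgNT in the dense pair. Each share of this list was below that of LINEs in the whole table. KIT and MYB, which encodes a transcription factor of blood progenitors, had L1PA7-centred regions with both guides in the dense pair.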

How the data were processed

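H3K27ac CUT&Tag was done on 4 libraries of Kasumi-1 cells, 2 per guide. The submitters' processing notes name cutadapt, Bowtie2 and the build hg38. For the peak caller, the stitching, the annotation tool and the treatment of multi-mapped reads, the method was not given in the sources used here. Per stitched region, the 4 deposited tables give the authors' normalized signal, whose values equal a number of at most 4 decimals times the width, with a rank, the nearest gene and the element at the centre. Signal per bp was the deposited signal divided by the region's width. The tables hold no read counts, so depth is unknown, and 0 value columns were left without a group.

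Tables were put in groups by the guide in their identifiers, and in pairs by naming scheme; which library gave which table is not stated. Members were rows whose annotation has 3 fields with LINE second. Overlap meant at least 1 bp. Shares have exact (Clopper-Pearson) 95% intervals, and ratios of numbers have exact conditional 95% intervals. Guides were compared by exact permutation of the 4 tables, without regard to the pairs, and families within a table by exact sign flips over 4 tables. Named regions were, by rule, the 5 highest by signal and the 5 highest without counterpart per table, loci found in all 4 tables, and the 10 highest and 10 lowest matched ratios; subfamilies needed 20 regions. The members, lists and rules were chosen with earlier results of these data known. The overlap code was tested on simulated data. Python 3.11.15, pandas 2.3.3, numpy 2.4.6, scipy 1.17.1 and matplotlib 3.10.9 were used.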

Additional observations from a re-analysis of the deposited data

Results flagged for a closer look

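LINE-centred regions lacked a counterpart more often than other regions in both sgSETD8 tables and less often in both sgNT tables, so that every table of one guide moved one way and every table of the other the opposite way. The mean of LINE minus other regions was 9.12 percentage points greater with sgSETD8 than with sgNT. Among regions with a counterpart the LINE share was near equal with both guides. The opposite signs therefore restate the difference in LINE share and are no separate result. The difference was not tested.

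The share of sparse regions seen in a dense table was 9.59 points lower for LINE-centred than for other regions with sgSETD8 and 1.62 points higher with sgNT, a difference between the guides of -11.2 points from 1 table each. The difference was not tested.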

How the results depend on the processing

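Of 94 alternatives computed over 11 results, 87 kept their direction. Some of these 87 could not have changed. With 0 regions on other sequences, the alternative over all sequences repeated the main values. Leaving out the dense pair likewise repeated the share of sparse regions seen in a dense table. The log2 number of LINE-centred regions turned from 0.90 to -0.050 when sparse regions were limited to those seen in a dense table, an alternative chosen after seeing the data, while the LINE share difference there was 2.56 points. With every table limited to regions of 1 peak, the LINE-minus-other share without counterpart turned to -0.49 points. The LINE-minus-other share of sparse regions seen in a dense table turned to 1.67 points. Neither turned when regions of 1 peak were set against all regions of the other tables, at 1.02 and -4.28 points in the same order. That alternative was also chosen after seeing the data. The L1-minus-L2-and-CR1 share without counterpart turned from -4.39 to 0.059 points in the 5000 best-ranked regions and to 3.90 points at widths of at least 500 bp; leaving out 1 pair at a time gave -8.89 to 0.11. With no median subtracted, the matched LINE density ratio was -0.24. The cause was not tested. Leaving out 1 pair at a time gave LINE share differences of 0.97 to 9.54 points, log2 numbers of 0.36 to 1.44 and L1 share differences of 1.97 to 24.6 points. No paired analysis was possible because the labels carry no replicate numbers and do not tie tables to libraries; the differences within the pairs of tables, made by naming scheme, are given without a paired test, which 2 pairs could not bring below 0.5. Motif shares in 300 bp at the region centres, and in 100 bp, were not run, since no genome was used here. Unknown depth and 2 tables per guide limit every comparison.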
